A study of Mus musculus with 12 samples.

Results

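Cyp26b1 encodes the cytochrome P450 enzyme that oxidises and so clears retinoic acid. It was examined with 8 other genes of retinoic acid synthesis, binding, clearance and reception, which are Cyp26a1, Aldh1a1, Aldh1a2, Rara, Rarb, Rxra, Crabp2 and Dhrs3. The members were every bead-array probe that the array's probe table assigns to 1 of these 9 symbols, 13 probes of the 46147 on the array, which names 17658 genes. The set was picked on the intensity and detection p of Cyp26b1 in unstressed knockout pituitaries, where it was below detection, and the other members by pathway. That low level is therefore a description here, and no comparison of Cyp26b1 that contains the unstressed knockout group was tested.

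The samples were whole pituitaries of mice lacking Crhr1, the receptor for corticotropin-releasing hormone (KO), and of Crhr1 wild-type mice (WT). All mice of all groups, controls included, had received metyrapone, which blocks corticosterone synthesis, as an intraperitoneal 150 mg/kg dose and a second dose of 100 mg/kg. In stressed mice the doses came 12 h before and directly before 30 min of restraint, and the pituitaries were taken 1 h or 3 h after restraint began. Control mice had no restraint and were killed 1 to 3 h after injection. The 6 groups were thus KO control, KO 1 h, KO 3 h, WT control, WT 1 h and WT 3 h, with 2 arrays each. The arrays are called technical replicates of pooled RNA, so errors and p-values measure the spread between arrays of 1 pool and not between mice. The fit of 6 pools over the 3 treatments, given below, is the exception. Mice per pool, strain, age, sex and the structure of the Crhr1 deletion are not stated in the labels. For KO control and KO 3 h, the source field gives 1 h stress instead, and groups follow the titles.

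Retinoic acid is made from vitamin A in 2 oxidations, retinol to retinal and retinal to retinoic acid. Dhrs3 turns retinal back to retinol, and the dehydrogenases Aldh1a1 and Aldh1a2 carry out the final, irreversible step. Crabp2 carries retinoic acid to the nucleus, where the receptors Rara and Rarb act as dimers with partners such as Rxra on direct repeats in DNA, and Cyp26a1 and Cyp26b1 degrade it. In pituitary cells retinoic acid is known to raise transcription of the growth hormone gene in rat cells and to lower that of Pomc in mouse corticotroph tumour cells.

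The promoters of Cyp26b1 and of the 2 members whose start regions hold a direct repeat spaced by 5 bases are shown because such repeats are the classical binding element of retinoic acid receptors. Sequences are from RefSeq, build GRCm38.p6, and read 5′ to 3′ on the strand of the gene, with bases counted back from its start. Cyp26b1 is given from chr6:84593811-84594060 on the minus strand, the 250 bases before the start. Rarb is given from chr14:16575477-16575576 on the minus strand and Cyp26a1 from chr19:37697708-37697807 on the plus strand, 100 bases each. Capitals mark a direct repeat of half-sites 5 bases apart on either strand. A half-site is AGGTCA. The form AGTTCA was also searched, so was the form GGGTCA, and so was GGTTCA.
Cyp26b1: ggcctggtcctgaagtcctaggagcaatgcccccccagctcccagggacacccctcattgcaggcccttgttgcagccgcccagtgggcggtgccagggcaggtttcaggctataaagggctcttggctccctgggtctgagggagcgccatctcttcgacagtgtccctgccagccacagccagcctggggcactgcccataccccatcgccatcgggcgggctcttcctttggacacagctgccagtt
Rarb: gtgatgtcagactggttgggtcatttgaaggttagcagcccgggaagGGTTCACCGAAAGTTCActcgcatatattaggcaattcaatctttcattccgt
Cyp26a1: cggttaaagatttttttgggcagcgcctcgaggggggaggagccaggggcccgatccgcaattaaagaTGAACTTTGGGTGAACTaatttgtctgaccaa
The repeat lies 53 to 37 bases before the start of Rarb, on the gene's own strand, and 32 to 16 bases before that of Cyp26a1, on the opposite strand. Windows of 300 bases, 250 before and 50 after each start, were listed for 8 of the 9 members, 15 windows in all. A repeat with this spacing occurred in 32 of the 32851 windows of all genes (0.0974%). With 1 base of spacing it occurred in 0.222% and with 2 bases in 0.268% of windows, and in no window of a member at either spacing. These are matches of letters and not measured binding sites.

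Tissue identity, depth and the targeted gene were checked first. Of 11 pituitary hormone cell markers with a probe, 10 were detected in every group, and Nr5a1, the gonadotrope regulator, in none. Between 9212 and 13506 probes per array were detected at a detection p-value under 0.01, with the exception of KO 3 h replicate 2, where 6119 were. Arrays of a group correlated across probes at 0.966 to 0.98, against 0.908 in KO 3 h. A Crhr1 probe (5390647) was detected on 0 of 6 KO and 4 of 6 WT arrays, another (450161) on 1 of 6 each and the last (3140070) on none. Where these probes lie relative to the deletion is not known here, so they do not check the genotype fully. All arrays numbered 1 were on the same slide and all numbered 2 on the other.

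Of the 13 member probes, 4 were detected on at least 2 arrays and entered the tests, 1 each of Cyp26b1, Aldh1a1, Aldh1a2 and Rarb. Cyp26b1 was detected on 10 arrays, Aldh1a1 on 11, Aldh1a2 on 9 and Rarb on 11 of 12. The other 9 probes were not above background on any array. They are both probes each of Cyp26a1 (380022, 2690600) and Dhrs3 (360609, 106860110), the single probes of Rara (4050161), Rxra (3800471) and Crabp2 (6940725), and 2 of the 3 probes of Rarb (430139, 103060180). Their raw intensities lay between 73 and 126 on slide 1 and between 114 and 421 on slide 2. The lowest detection p among them was 0.0217, for Rxra on KO 3 h replicate 2. The probes of Rarb thus disagree, and its values below are those of probe 1410138 alone.

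**Figure D1:**
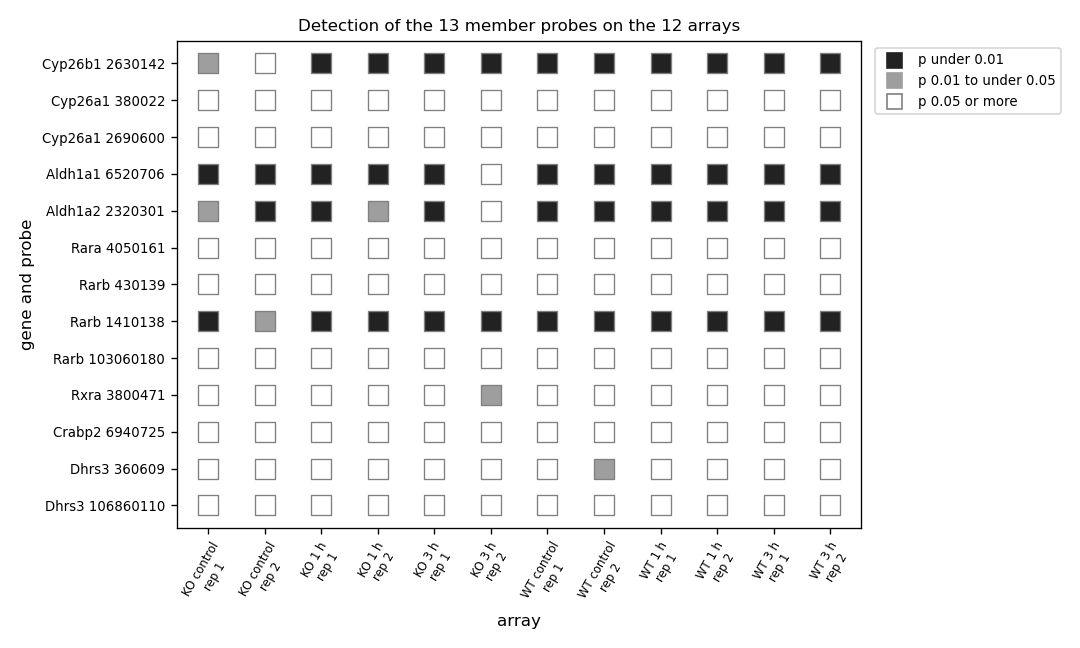
Detection of each of the 13 member probes (rows) on each of the 12 arrays (columns). Black squares have a detection p under 0.01, grey squares 0.01 to under 0.05 and open squares 0.05 or more. The Cyp26b1 row is black on 10 arrays and not on the 2 KO control arrays.

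Cyp26b1, the clearance enzyme, was near background in unstressed KO pituitaries and bright on every other array. Its raw intensity was 120 and 155 on the KO control arrays, with detection p 0.0186 and 0.0804. It was 567 and 1284 in KO 1 h and 432 and 585 in KO 3 h. In WT mice it was 528 and 754 in controls, 507 and 761 at 1 h, and 904 and 1144 at 3 h, so the KO control arrays overlap with no other group. The 2 KO control values rest on 37 and 31 beads.

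On the normalized log2 scale Cyp26b1 measured 5.79 ± 0.24 in KO control, 9.42 ± 0.23 in KO 1 h and 8.43 ± 0.22 in KO 3 h. It measured 8.88 ± 0.16 in WT control, 9.01 ± 0.00 in WT 1 h and 9.65 ± 0.02 in WT 3 h (SD, n = 2 arrays each). From the highest to the lowest the order was WT 3 h, KO 1 h, WT 1 h, WT control, KO 3 h and KO control. The mean differences between the first 5 groups in that order were 0.23, 0.41, 0.14 and 0.44, with an SE of 0.20 for any pair. The steps of 0.23 and 0.14 are close to or below that SE, and the nearest arrays across them lie 0.06 and 0.02 apart. KO control, the level the set was picked on, has no exact distance from KO 3 h because it is at background.

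Because KO control was not above background, folds against it are lower bounds, taken against the faintest signal detected on the same arrays where that was brighter than the probe. Cyp26b1 was at least 9.27-fold higher in KO 1 h and at least 4.68-fold higher in KO 3 h than in KO control. It was at least 6.37-fold lower in KO control than in WT control. On each slide taken alone, the KO control array was the lowest of the 6. In the authors' own normalized table the KO control arrays read 39.6 and 24.5, and all other arrays between 239 and 647.

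**Figure D2:**
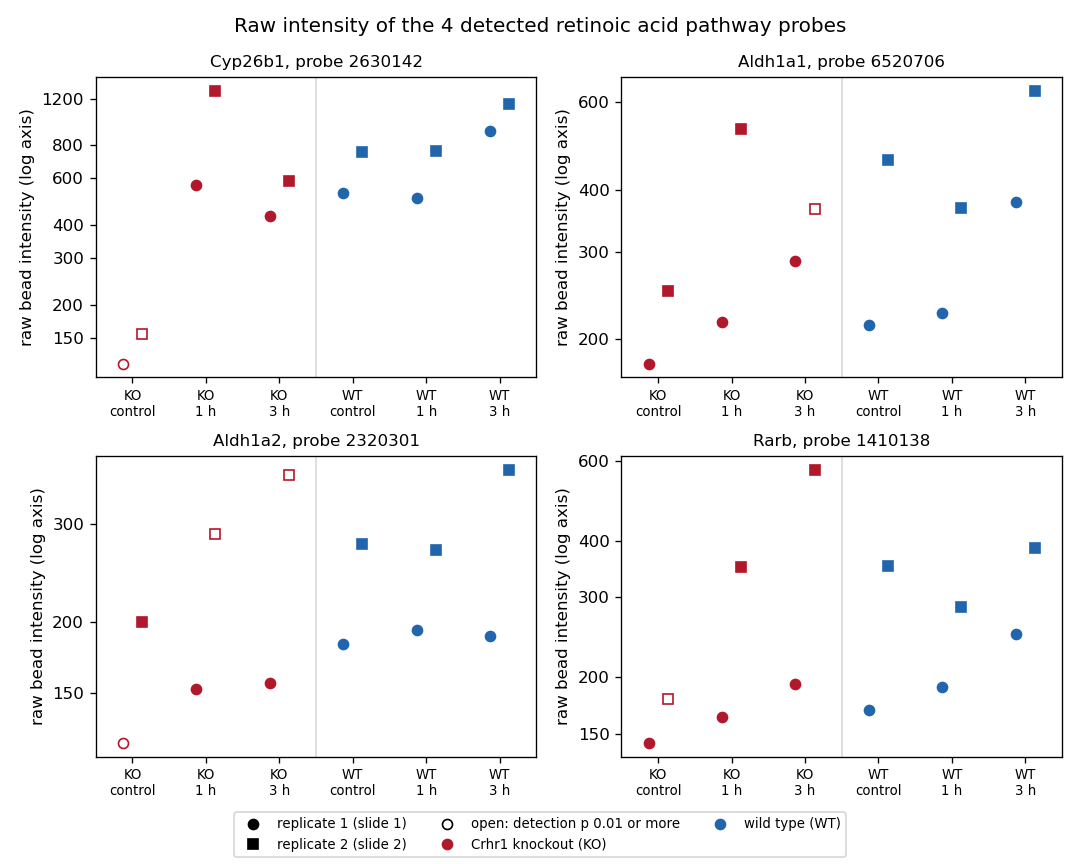
Raw bead intensity (log axis) of the 4 detected members on each array, with the KO groups at the left and the WT groups at the right. Circles are replicate 1 on slide 1, squares replicate 2 on slide 2, and open symbols have a detection p of 0.01 or more. Cyp26b1 stands at 120 and 155 in KO control and at 432 or more elsewhere, and the other members have no such gap.

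Few probes shared this pattern of detection. Probes detected on every array except both arrays of 1 group numbered 5 for KO control, 1 for KO 1 h, 18 for KO 3 h and 0 for each WT group, of 46147. The 5 of KO control were Cyp26b1, Emb, a chaperone of monocarboxylate transporters, H2-Ab1, an MHC class II chain, Prdx2, a peroxiredoxin, and unnamed probe 104060687. With a limit of 0.05 in place of 0.01 the count for KO control was 8, and Cyp26b1 was no longer among them, since its p on replicate 1 lay below that limit. In whole-tissue RNA, fewer cells that carry a transcript and less of it per cell cannot be told apart.

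Markers of other cell types were set beside the KO control level. The summed endothelial markers, 6 of 7 detected with Kdr at background, were 1790 to 1800 in KO control, in normalized intensity units. In WT control they were 1590 to 1890. These sums hide opposite differences between single genes. On the log2 scale Plvap was lower in KO control, at 8.1 to 8.32, against 8.99 to 9.01 in WT control. Pecam1 (probe 4810139) was higher, with means of 7.39 in KO control and 6.69 in WT control. Cdh5 was also higher, at 7.32 against 6.8, while Emcn (probe 5130672) was similar, at 9.01 against 9.03. Fibroblast and meningeal markers, 5 of 7 detected, summed to 2740 to 3160 in KO control and 2850 to 2900 in WT control, with Col1a2 at background in both. Stem and folliculostellate markers, 2 of 5 detected with Sox2, S100b and Aldoc at background, were higher at 1140 to 1210 in KO control, against 532 to 755 in WT control. Their part in the Cyp26b1 level was not tested.

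Restraint in WT mice was then tested on all 4 detected members. None passed at 1 h or at 3 h (0 of 4 each), where a call needs a Benjamini-Hochberg adjusted p under 0.05 from limma over 14405 probes and a change of at least 1.5-fold. Over all probes 0.0625% were called at 1 h and 0.167% at 3 h. At an unadjusted limma p under 0.05 the members numbered 0 at 1 h and 1 at 3 h. The share of all probes under that unadjusted limit is not given, so such counts, here and below, are descriptions only. At 3 h Cyp26b1 read 904 and 1144, against 528 and 754 in WT control, and these arrays do not overlap. How many of all probes have arrays without overlap is not given, so overlap, here and below, is a description only. Its log2 difference was 0.77 ± 0.20 (SE) with a limma adjusted p of 0.208 and an unadjusted p of 0.00339, and it was 0.67 on slide 1 and 0.88 on slide 2. At 1 h it was 0.14 ± 0.20 with a limma adjusted p of 1.

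Aldh1a1, which makes retinoic acid, read 377 and 633 at 3 h, against 213 and 460 in WT control. Its raw values overlap across slides, while within each slide the difference was positive, 0.83 and 0.80 on the log2 scale. Over both slides it was 0.81 ± 0.38 with a limma adjusted p of 0.47. Aldh1a2 at 3 h differed by 0.38 ± 0.34 and Rarb, the receptor, by 0.45 ± 0.39, both on the log2 scale and neither past the threshold. Aldh1a2 had opposite signs on the slides, -0.31 on slide 1 and 1.07 on slide 2, while Rarb had 0.53 and 0.38.

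In KO mice 3 members could be tested, and none was called at 1 h or 3 h after restraint (0 of 3 each). Over all probes 0.201% were called at 1 h and 8.68% at 3 h. At an unadjusted limma p under 0.05 the members numbered 0 at 1 h and 1 at 3 h. The largest difference was that of Rarb at 3 h, 1.11 ± 0.39 on the log2 scale with a limma adjusted p of 0.104. Rarb read 193 and 573 at 3 h, against 143 and 179 in KO control, so the size rests mainly on replicate 2. Within slides it was 0.23 on slide 1 and 2.00 on slide 2. Without KO 3 h replicate 1, which leaves replicate 2 alone in that group, the Rarb difference was 1.84.

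Aldh1a1 in KO mice read 287 and 365 at 3 h, against 178 and 250 in KO control. On KO 3 h replicate 2 its 365 was not above background, on the array with the highest median intensity of all probes, 255. Its normalized difference at 3 h was 0.56 on slide 1 and -0.87 on slide 2, with -0.15 ± 0.38 over both. Aldh1a2 differed by -0.06 ± 0.34 at 1 h and -0.04 ± 0.34 at 3 h.

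KO 3 h also differed from the other groups in some markers of exocrine and stomach tissue and of cell types other than hormone cells. Exocrine and stomach markers, with 4 of 5 genes detected and Muc5b at background, summed to 1440 to 1630 in KO 3 h and to 183 to 247 in the other 5 groups. Lipf, gastric lipase, averaged 10.02 on the log2 scale in KO 3 h, against 5.99 in KO control where it was at background. Lyz1 (probe 6020195) averaged 8.33 in KO 3 h, against 4.80 in KO control, also at background. Amy1 (probe 2360148) and Amy2a5 were each detected on 1 KO 3 h array and were not highest in that group. Amy1 averaged 5.54 in KO 3 h and 5.62 in WT 3 h, and Amy2a5 averaged 6.16 in KO 3 h and 6.66 in KO 1 h. Endothelial markers, 6 of 7 detected with Kdr at background, summed to 2240 to 2380 in KO 3 h and to at most 2010 elsewhere. Fibroblast and meningeal markers, 6 of 7 detected with Col1a2 at background, summed to 3950 to 4150 in KO 3 h and to at most 3520 elsewhere. Posterior lobe and hypothalamic markers were detected for 6 of 8 genes in KO 3 h, with Rax and Col25a1 at background, and for 3 or 4 elsewhere, while their sum of 7030 to 7710 in KO 3 h lay within the 5840 to 8050 of the other groups. The part of these in the KO 3 h values was not tested.

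KO was compared with WT within each treatment. In controls 0 of 3 tested members were called by limma, against 1.67% of all probes, and 0 had an unadjusted p under 0.05. They had log2 differences of -0.29 ± 0.38 for Aldh1a1, -0.29 ± 0.34 for Aldh1a2 and -0.54 ± 0.39 for Rarb. Rarb read 143 and 179 in KO control, against 169 and 352 in WT control, and 163 and 350 in KO 1 h, against 190 and 285 in WT 1 h. With 1.67% of all probes called, 0 of 3 does not set these members apart. Aldh1a2 and Rarb were each detected on 1 of the 2 KO control arrays. At 1 h 0 of 4 were called, against 0.812% of all probes, and 0 had an unadjusted p under 0.05. Cyp26b1 read 567 and 1284 in KO 1 h, against 507 and 761 in WT 1 h. Its log2 difference at 1 h was 0.41 ± 0.20 with a limma adjusted p of 0.371.

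At 3 h Cyp26b1 was lower in KO than in WT and was the only member called (1 of 4, against 1.38% of all probes). It is the gene the set was picked for, so its call says nothing about the set, and Aldh1a1, Aldh1a2 and Rarb were not called. The fit also takes its spread in part from the KO control arrays on which Cyp26b1 was picked. Cyp26b1 read 432 and 585 in KO 3 h and 904 and 1144 in WT 3 h, and KO 3 h is also the group with the raised marker sums given above. The log2 difference was -1.22 ± 0.20 with a limma adjusted p of 0.0259, and it was -1.08 on slide 1 and -1.36 on slide 2. Under 22 other settings it stayed between -1.74 and -0.99, and 12 of them kept the call, with limma adjusted p between 0.00234 and 0.644. Leaving out either array of WT 1 h (limma adjusted p 0.0637 and 0.0628), of WT 3 h (0.145 and 0.219) or of KO control (0.0512 and 0.0514), or KO 3 h replicate 2 (0.117), ended the call.

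Aldh1a1 at 3 h read 287 and 365 in KO and 377 and 633 in WT. Its log2 difference was -1.25 ± 0.38 with a limma adjusted p of 0.155, and it was -0.39 on slide 1 and -2.12 on slide 2. The 365 of KO 3 h replicate 2 was not above background, so the slide 2 value has no exact size. Without KO 3 h replicate 1 the Aldh1a1 difference was -1.90, with replicate 2 alone in that group. Rarb read 193 and 573 in KO 3 h and 249 and 386 in WT 3 h, which overlap. It differed by 0.13 ± 0.39, and by -0.42 with each array centred on its median in place of quantile normalization. Without KO 3 h replicate 1 Rarb differed by 0.85, while without KO 3 h replicate 2 it differed by -0.61.

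Aldh1a2 was detected on 3 of 6 KO arrays and on 6 of 6 WT arrays. The share of all probes with such a split is not given, so this count is a description only. Its raw intensity was 122 and 200 in KO control, 152 and 287 in KO 1 h, and 156 and 367 in KO 3 h. In WT mice it was 183 and 276 in controls, 194 and 269 at 1 h, and 189 and 374 at 3 h. On slide 1 every KO array was below every WT array, and on slide 2 they overlapped. Its 287 in KO 1 h and 367 in KO 3 h were not above background, on the arrays with the fewest detected probes (9212 and 6119). The lower 269 of WT 1 h and 276 of WT control were above background on their own arrays. KO minus WT was -0.64 ± 0.34 at 1 h (limma adjusted p 0.423) and -0.71 ± 0.34 at 3 h (limma adjusted p 0.317). Over the 3 treatments, with the arrays of a pool averaged and 6 pools fitted, it was -0.54 ± 0.19 with a limma adjusted p of 0.345. The error there is the departure of the 6 pools from additive terms for genotype and treatment, not the spread between arrays. In that fit 0 of 3 members were called by limma, against 0.0833% of all probes, and Aldh1a2 was the 1 member with an unadjusted p under 0.05.

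**Figure D3:**
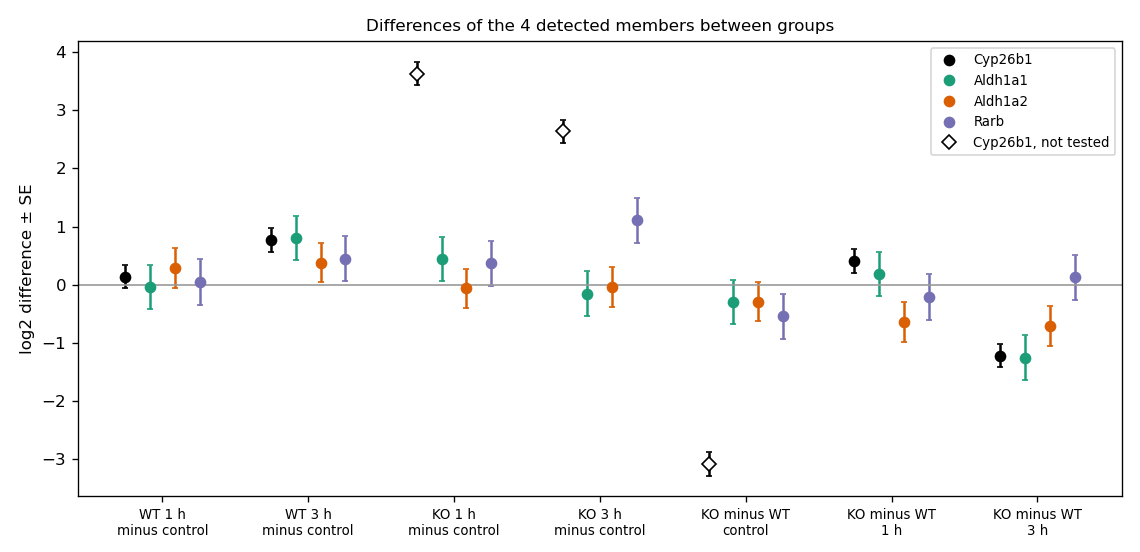
Log2 differences with SE of the 4 detected members in 7 comparisons (horizontal axis), stressed minus control in WT and KO and then KO minus WT per treatment. Open diamonds are Cyp26b1 in comparisons with KO control, which were not tested and whose exact size is not known, since KO control is at background. Of the filled points only Cyp26b1 in KO minus WT at 3 h, at -1.22, passed the threshold.

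The stress responses of the genotypes were also set against each other, as KO response minus WT response. No tested member was called at 1 h or at 3 h (0 of 3 each), against 0.0555% and 0.139% of all probes, and 0 had an unadjusted limma p under 0.05 at either time. At 3 h the difference of responses was -0.97 ± 0.54 for Aldh1a1, -0.42 ± 0.48 for Aldh1a2 and 0.66 ± 0.55 for Rarb. Without KO 3 h replicate 1, which leaves replicate 2 alone in that group, the difference of responses was -1.61 for Aldh1a1 and 1.38 for Rarb. Cyp26b1 is not given here, since its KO control level is at background.

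The wider retinoid pathway was described with 60 other genes of vitamin A transport, storage, oxidation, receptors, cofactors and known retinoic acid targets. Of these 52 had a probe and 24, with 27 probes, passed the detection filter. None of the 27 probes was called in WT mice at 1 h or 3 h or in KO mice at 1 h. At an unadjusted limma p under 0.05 the probes numbered 1, 3 and 5 of 27 in these comparisons. They numbered 8 in KO 3 h against KO control, and 8, 4 and 6 in KO against WT in controls, at 1 h and at 3 h. The share of all probes under this unadjusted limit is not given, so these counts do not set the retinoid probes apart. In KO 3 h against KO control, 2 of the 27 were called higher and 3 lower, where 8.68% of all probes were called. In KO against WT, 0 were higher and 3 lower in controls, where 1.67% of all probes were called. At 1 h and at 3 h 1 was lower, where 0.812% and 1.38% of all probes were called. These 10 calls were all lost in fits limited to the 4 arrays under comparison (limma adjusted p 0.0835 to 0.644). The median log2 difference of the 27 probes was -0.34 in KO 3 h against KO control, where that of all probes was -0.11, and 0.12 in KO against WT controls, where that of all probes was 0.00.

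Tgm2, a transglutaminase that retinoic acid induces in mouse macrophages, was low in unstressed KO pituitaries and called in 3 comparisons. Its raw intensity was 262 and 310 in KO control, 449 and 749 in KO 1 h, and 549 and 764 in KO 3 h. In WT mice it was 602 and 1010 in controls, 642 and 904 at 1 h, and 982 and 1340 at 3 h. The KO control arrays lie below all others, and on the normalized scale every KO array lies below every WT array.

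In KO against WT controls Tgm2 fell by 1.30 ± 0.17 on the log2 scale with a limma adjusted p of 0.0124. That call was lost without any single array of the 2 groups (limma adjusted p 0.0786 to 0.15), and 17 of 22 other settings kept it. In KO 3 h against KO control it rose by 1.05 ± 0.17 with a limma adjusted p of 0.0119, a call lost without either KO control array (0.0706 and 0.127) and with median centring (0.192), and kept in 17 of 22 other settings. In KO against WT at 3 h the difference was -0.87 ± 0.17 with a limma adjusted p of 0.0423. That call was lost without any single array other than KO 3 h replicate 1 (0.0628 to 0.305), and 7 of 22 other settings kept it.

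Rxrg, a partner receptor expressed by thyrotropes in mouse pituitary, also fell in KO against WT controls. It read 198 and 253 in KO control, against 414 and 606 in WT control. The log2 difference was -1.08 ± 0.17 with a limma adjusted p of 0.0244. The call was lost without WT 1 h replicate 1, WT 3 h replicate 2, or any array of the control groups (limma adjusted p 0.0502 to 0.219), and 14 of 22 other settings kept it.

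Rai1, a chromatin protein named for its induction by retinoic acid in mouse cells, read 162 and 231 in KO control and 333 and 504 in WT control. It fell by 1.08 ± 0.21 on the log2 scale with a limma adjusted p of 0.0466, and the call was lost without any single WT array or either KO control array (0.0852 to 0.247) and kept in 10 of 22 other settings. Ttr, which carries thyroxine and the retinol-binding protein complex in blood, read 228 and 416 in KO 1 h and 401 and 599 in WT 1 h. Its log2 difference there was -1.15 ± 0.20 with a limma adjusted p of 0.0392, a call lost without any single array other than those of KO 3 h (0.0666 to 0.326) and kept in 8 of 22 other settings.

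The remaining calls were in KO 3 h against KO control. Retsat, which saturates retinol, read 195 and 343 in KO 3 h, the higher value not above background, against 265 and 364 in KO control. Probe 4760603 of Retsat gave -1.63 ± 0.22 on the log2 scale (limma adjusted p 0.00804, lost without KO control replicate 1 at 0.063 or replicate 2 at 0.0889, and kept in 19 of 22 other settings), and probe 460110 gave -0.50 ± 0.31 and was not called. Rxrb, another partner receptor, had 1 probe (5340438) at -1.17 ± 0.26 with a limma adjusted p of 0.031 and another (1780040) that was not above background on either KO control array and gives no fold.

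The call of Rxrb was lost without either array of WT 1 h or KO control or without KO 3 h replicate 2 (limma adjusted p 0.0501 to 0.171), and 13 of 22 other settings kept it. Ttr fell by 0.89 ± 0.20 with a limma adjusted p of 0.0293, lost without any single array of WT 1 h, WT 3 h or KO control or without KO 3 h replicate 2 (0.0509 to 0.192), and kept in 10 of 22 other settings. Nrip1, a nuclear receptor corepressor, was among the 2 probes counted as higher, but it was detected on 2 arrays in all, 1 of KO 3 h and 1 of WT 3 h, and passed the filter through these. It read 187 and 366 in KO 3 h, the 366 not above background, against 105 and 130 in KO control, both not above background, and its call is given no weight here. Retsat, Rxrb and Ttr were not above background on KO 3 h replicate 2, the array with the fewest detected probes. In KO control the log2 means of Retsat (probe 4760603, 8.11) and Rxrb (probe 5340438, 8.48) lay above those of WT control (7.13 and 7.65), without a call.

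**Figure D4:**
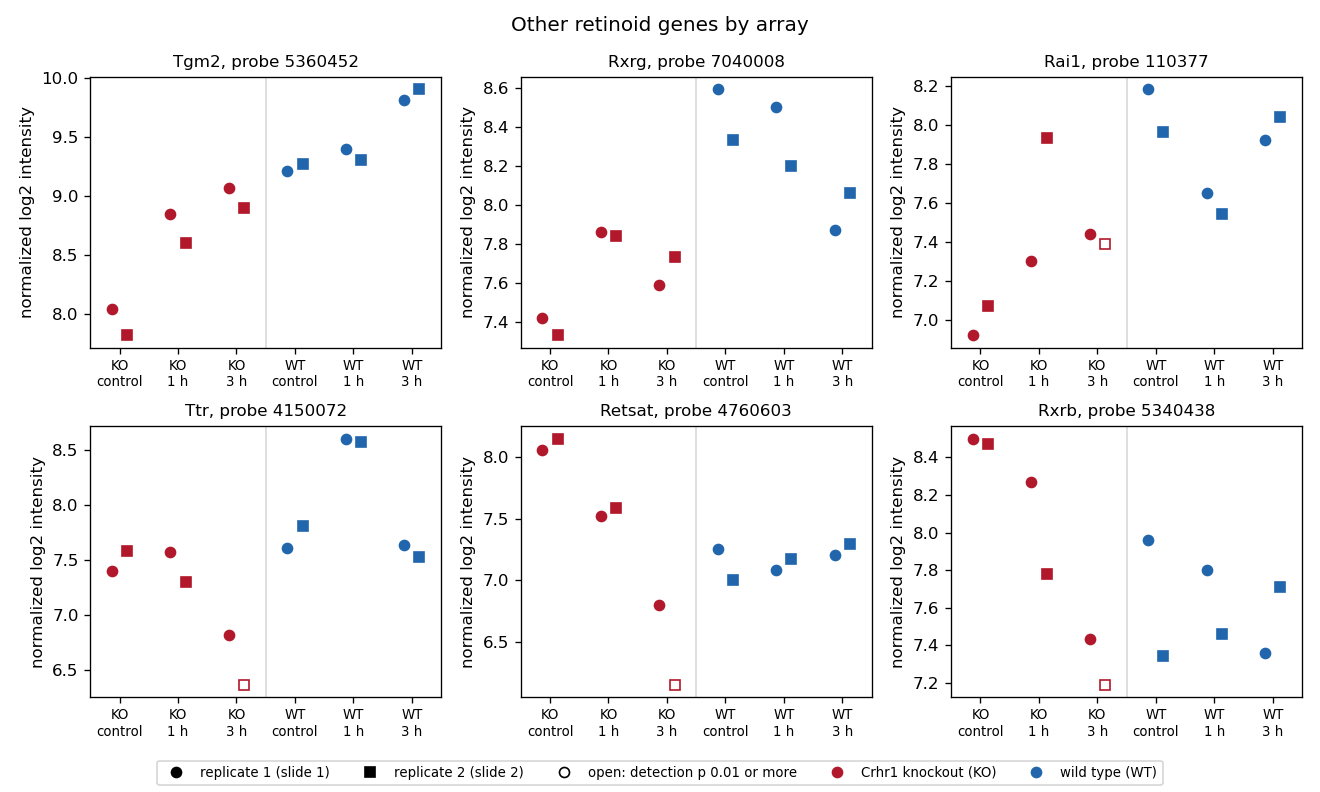
Normalized log2 intensity of 6 retinoid genes with a call, by array, with the KO groups left of the WT groups. Circles are replicate 1, squares replicate 2, and open symbols have a detection p of 0.01 or more. Tgm2, Rxrg, Rai1 and, by less, Ttr are lower on both KO control arrays than on both WT control arrays, while Retsat and Rxrb are higher.

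Genes whose level followed Cyp26b1 most closely were named by Pearson's r of log2 intensity over the 12 arrays, among 11230 probes with 1 gene symbol. They were Stard10, a lipid transfer protein (0.957), Faf2, of protein degradation at the endoplasmic reticulum (0.948), Emb (0.945), Parp3, an ADP-ribosyltransferase (0.931), and Man1b1, a mannosidase (0.929). The 12 points share 6 pools and are dominated by the low KO control arrays, so r is a description of that step. Emb averaged 4.86 on the log2 scale in KO control, not above background, against 10.72 in WT control. The other 4 stayed above background in KO control, at 9.02 for Stard10, 8.36 for Faf2, 7.31 for Parp3 and 8.39 for Man1b1, with 9.59, 9.64, 8.29 and 9.63 in WT control in the same order. Among members, r with Cyp26b1 was 0.497 for Aldh1a1, 0.446 for Rarb and 0.314 for Aldh1a2, which ranked 1299, 1621 and 2648.

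**Figure D5:**
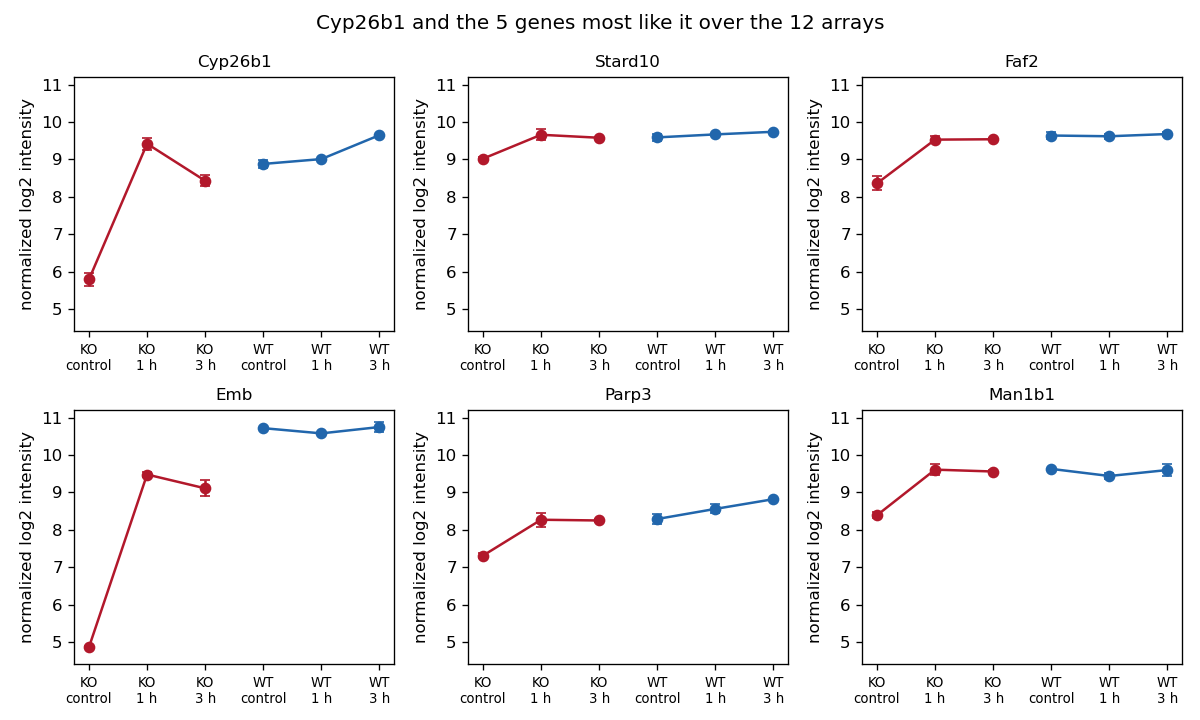
Mean normalized log2 intensity of Cyp26b1 and the 5 genes most like it in the 6 groups, with bars from the lower to the higher array, KO left and WT right. All 6 have their lowest mean in KO control, and only Cyp26b1 (5.79) and Emb (4.86) are at background there.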

How the data were processed

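Pituitary RNA of 6 groups was hybridised to 12 Illumina bead arrays, 2 per group. The authors deposited raw mean bead intensity for 46147 probes per array, without background subtraction or normalization per the file headers, with a detection p-value per probe from BeadStudio, named without a version in the submitters' processing notes. A deposited normalized intensity table of 46133 probes, its method not given in the sources used here, served as an alternative.

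Raw intensities were corrected with normexp (background from detection p-values, offset 16), quantile normalized and put on the log2 scale in limma 3.58.1 (R 4.3.3). Probes detected at p under 0.01 on at least 2 arrays were kept, 14405 of those also present in the authors' table. Groups were compared with lmFit and eBayes on all arrays, 1 term per group, and tested on simulated data. A call needed a Benjamini-Hochberg adjusted p under 0.05 and 1.5-fold. The 5 like genes are those of highest correlation, and other retinoid genes are named where called. Symbols came from the probe table (29542 probes with 1, 11 with several, 16594 with none). The members and lists were chosen with earlier results of these data known.

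Same-numbered arrays share a slide. Deviations of same-numbered arrays from their group means correlated across groups at -0.15 to 0.456 over 15 pairs of groups, so the number was not taken as a pairing of pools, and slide was tried as a block. Values within each slide were added after seeing the data. Precision is limited by the 2 arrays per group.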

Additional observations from a re-analysis of the deposited data

How the results depend on the processing

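The Cyp26b1 call in KO against WT at 3 h was lost with the authors' table (0 members called, limma adjusted p 0.0681), with array quality weights (0, 0.155) and with only the arrays compared (0, 0.644). With slide as a replicate block it was kept, at -1.22 with a limma adjusted p of 0.0311, and no member's call changed under the block. Leaving out KO 3 h replicate 1 raised the number of members called in KO against WT at 3 h and in KO 3 h against control. The same held for the difference of responses at 3 h. In these comparisons the counts over all probes, given below, were also highest in that setting. The Cyp26b1 difference between KO 1 h and KO control was 3.63, with 3.00 at offset 50, 2.23 without background correction and 4.13 in the authors' table, and all of these compare with a group at background. At a detection p under 0.05, probes absent only from 1 group numbered 8 for KO control, 1 for KO 1 h, 23 for KO 3 h, 1 for WT control, 0 for WT 1 h and 1 for WT 3 h. With median centring Aldh1a2 in KO 1 h against control was 0.01 and Rarb in KO against WT at 3 h was -0.42, both reversed in sign.

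Leaving out single arrays turned the sign of some uncalled differences. For Aldh1a1 the range was -0.28 to 0.19 in WT 1 h against control, -0.80 to 0.50 in KO 3 h against control and -0.03 to 0.41 in KO against WT at 1 h. For Aldh1a2 it was -0.01 to 0.57 and -0.02 to 0.77 in WT at 1 h and 3 h against control, -0.36 to 0.24 and -0.34 to 0.26 in KO at 1 h and 3 h against control, and -0.59 to 0.01 in KO against WT controls. For Rarb it was -0.15 to 0.24 in WT 1 h against control, -0.61 to 0.85 in KO against WT at 3 h, -0.06 to 1.38 in the difference of responses at 3 h and -0.46 to 0.04 over the pools. Of all member differences under alternatives, 706 kept direction and side of the threshold, 18 reversed, 5 gained and 10 lost a call, and the cause was not tested.

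Counts over all probes moved more. In KO 3 h against control 1250 were called, 0 with only the arrays compared and 24 to 3927 leaving out single arrays. In KO against WT at 3 h 199 were called, 0 and 21 to 3204 likewise, in controls 241, 17 and 6 to 757, and at 1 h 117, 0 and 2 to 476. In WT at 1 h and 3 h 9 and 24 were called, with 2 to 18 and 2 to 76 leaving out single arrays, and in KO at 1 h 29, with 10 to 78. The differences of responses gave 8 (3 to 11) and 20 (8 to 2113) at 1 h and 3 h, and the pools 12 (1 to 48, and 404 with median centring). Median centring moved the median of all probes in KO against WT at 3 h to -0.51, against -0.11, and in KO 3 h against control to -0.24, against -0.11. The 2 technical arrays per group and, for Aldh1a2, detection on 9 of 12 arrays limit the precision.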
